A study of Mus musculus with 6 samples.

Results

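The 9 genes described here encode the repressing arm of the circadian clock and its regulators, and they were taken by symbol: the period genes Per1, Per2 and Per3, the cryptochrome genes Cry1 and Cry2, Ciart (CHRONO), the casein kinase 1 genes Csnk1d and Csnk1e, and the F-box gene Fbxl21. All 9 were found, of 17645 genes listed in at least 1 library, and all 9 were listed in every library and passed the filter on low counts. RNA came from the suprachiasmatic nucleus (SCN), the central clock of the hypothalamus, in female C57BL/6 mice killed in the dark between zeitgeber time 12 and 14, the hours after lights off. By title there were 3 libraries of a group V, numbered 2, 3 and 4, and 3 of a group r1r2V, numbered 1, 4 and 5, each made from a pool of RNA of 2 SCN. The series title names a loss of both REV-ERB genes, Nr1d1 and Nr1d2, from GABAergic neurons, which was taken to be r1r2V, with V as its control. The sources used here do not give the Cre driver, what V stands for, the alleles that controls carry, the ages of the animals or whether pools came from separate animals. P-values therefore measure the spread between these libraries, which may be partly technical.

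In the clock's feedback loop, the activators BMAL1 and CLOCK bind E-box sequences and switch on the Per and Cry genes. PER and CRY proteins then enter the nucleus as a complex and block those activators. Casein kinases 1δ and 1ε bind and phosphorylate PER and so set how fast it is degraded, FBXL21 is an F-box protein that ubiquitinates CRY, and CHRONO is a further repressor of BMAL1 and CLOCK. REV-ERB proteins form a further loop and repress genes with REV-ERB and ROR elements, of which Arntl (BMAL1) and Cry1 are known examples. In the SCN, Per transcripts peak in the day or early evening and Cry1 somewhat later, so early night is a time at which these genes are still expressed.

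Total expected counts ran from 15729603 to 17780928 a library. The targeted genes were not lower in the libraries labelled r1r2V: Nr1d1 stood at 56.7, 62.5 and 57.0 CPM (read counts scaled to a common library size) across V and at 195.8, 157.0 and 147.2 across r1r2V, and Nr1d2 averaged 174.7 and 242.1. Every direction below therefore rests on the titles and not on the targeted transcripts. Libraries labelled r1r2V varied more among themselves (biological coefficient of variation 0.117) than V libraries (0.0569). All 14 SCN neuron markers searched for, among them Avp, Vip and Six6, were found, and none was at 0 in all libraries. In r1r2V replicate 5 these markers stood 0.44 below the V mean on the log2 scale, against 0.10 and 0.24 above it in r1r2V replicates 1 and 4. Their summed level, in which Avp weighs most, was 605 to 690 CPM among V and 582, 639 and 647 CPM for r1r2V replicates 1, 4 and 5. Single markers moved in different directions. Prok2 stood at 7.67, 2.99 and 3.62 CPM across V and 12.1, 20.45 and 1.75 CPM across r1r2V. Rgs16 stood at 57.5, 53.7 and 56.1 CPM across V and 115.9, 113.8 and 71.8 CPM across r1r2V. Vip stood at 85.8, 53.0 and 51.8 CPM across V and 50.5, 72.0 and 11.4 CPM across r1r2V. The mean over the markers is therefore not a plain measure of SCN content. Markers of meningeal fibroblasts, cells of the brain's coverings, stood 0.99 above the V mean in r1r2V replicate 5, with 6 of 6 markers found and none at 0 in all libraries. Their mean was -0.10 in r1r2V replicate 1 and 0.18 in replicate 4. Their summed level, in which Ptgds weighs most, ranged over 384 to 481 CPM among V. It was 294, 260 and 799 CPM for r1r2V replicates 1, 4 and 5, so in replicate 4 the sum was below V and the mean above it. Ptgds alone stood at 340.2, 436.2 and 357.8 CPM across V and 251.1, 210.4 and 722.0 CPM across r1r2V. Markers of neighbouring hypothalamic neurons (15 of 15 found, none at 0 in all libraries) differed between libraries of both groups, with means of -0.58, 0.71 and -0.12 for V replicates 2, 3 and 4 and -0.24, -1.12 and 0.03 for r1r2V replicates 1, 4 and 5. Their summed level, in which Oxt weighs most, was 1528 to 1744 CPM among V and 1185, 1024 and 1904 CPM for r1r2V. Among these markers, Pomc reached 302.8 CPM in V replicate 3 and Pmch 580.9 CPM in r1r2V replicate 5. The part of these differences in the results was not tested. In bulk tissue, fewer cells of a type and less RNA per cell cannot be told apart.

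The promoters of the 5 members with a match to a motif searched for are printed first. They were chosen with the values of the members known, and a link between motifs and levels was not tested. Windows run from 250 bases before to 50 bases after the annotated start site (RefSeq, GRCm38.p6), 5′ to 3′ on the gene's strand. These start sites can differ from the ends of the gene spans given below. Those of Per1 and Csnk1e lie farthest inside the spans. Capitals mark matches, on either strand, to the E-box CACGTG, the E-box-like CACGTT, which reads AACGTG on the other strand, and the D-box TTATGTAA or TTACGTAA.

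Cry1 promoter, chr10:85185005-85185304, minus strand: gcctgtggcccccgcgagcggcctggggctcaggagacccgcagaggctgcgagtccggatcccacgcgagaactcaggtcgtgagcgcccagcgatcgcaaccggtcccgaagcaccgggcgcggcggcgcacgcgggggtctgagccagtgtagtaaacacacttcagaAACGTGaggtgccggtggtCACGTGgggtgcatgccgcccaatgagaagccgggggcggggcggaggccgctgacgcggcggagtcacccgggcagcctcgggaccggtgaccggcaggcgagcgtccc

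Ciart promoter, chr3:95882179-95882478, minus strand: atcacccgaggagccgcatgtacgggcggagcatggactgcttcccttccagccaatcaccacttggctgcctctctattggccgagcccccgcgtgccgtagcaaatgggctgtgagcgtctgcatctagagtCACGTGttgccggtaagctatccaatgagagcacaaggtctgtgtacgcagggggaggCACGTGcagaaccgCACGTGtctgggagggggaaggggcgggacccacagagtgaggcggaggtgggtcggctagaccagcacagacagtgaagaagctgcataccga

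Per1 promoter, chr11:69098699-69098998, plus strand: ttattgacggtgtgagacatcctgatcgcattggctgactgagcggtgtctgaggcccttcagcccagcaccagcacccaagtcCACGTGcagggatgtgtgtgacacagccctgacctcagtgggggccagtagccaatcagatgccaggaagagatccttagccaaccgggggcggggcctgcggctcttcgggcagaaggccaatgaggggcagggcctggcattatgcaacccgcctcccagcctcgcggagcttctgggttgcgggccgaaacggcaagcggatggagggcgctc

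Cry2 promoter, chr2:92434020-92434319, minus strand: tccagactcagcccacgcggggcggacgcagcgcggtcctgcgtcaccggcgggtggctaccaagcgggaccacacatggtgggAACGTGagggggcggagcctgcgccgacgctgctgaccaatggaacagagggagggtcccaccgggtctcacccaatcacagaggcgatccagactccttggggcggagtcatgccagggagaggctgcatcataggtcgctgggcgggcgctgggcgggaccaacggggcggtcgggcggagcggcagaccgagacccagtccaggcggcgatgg

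Per3 promoter, chr4:151044616-151044915, minus strand: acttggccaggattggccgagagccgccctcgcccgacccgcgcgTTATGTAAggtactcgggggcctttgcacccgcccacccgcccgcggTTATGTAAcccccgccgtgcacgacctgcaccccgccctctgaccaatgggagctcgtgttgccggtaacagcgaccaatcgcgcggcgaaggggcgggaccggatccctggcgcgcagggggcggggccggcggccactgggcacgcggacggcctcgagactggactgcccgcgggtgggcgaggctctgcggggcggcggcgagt

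Ciart has 3 E-boxes, starting 116, 58 and 44 bases upstream of the start site. Cry1 has 1 E-box at 60 bases upstream and an E-box-like match at 79, and Per1 has 1 E-box at 166. The Cry2 window has only the E-box-like match, at 166 bases upstream, and the Per3 window has 2 D-boxes, at 205 and 158. Of 32851 windows of the same length over all genes, 7.15% hold at least 1 E-box and 0.0883% hold 3 or more. Both an E-box and an E-box-like match, as at Cry1, are in 0.414%. The E-box-like match is in 4.68% of them, a D-box in 1.06%, and a pair of D-boxes in 0.0244%. A cyclic AMP response element (TGACGTCA, in 1.79% of windows) and the core of the REV-ERB and ROR element (TAGGTCA or TGGGTCA, in 6.45%) were also searched for and had no match in the member windows. In all, 7 of the 9 members had a window, and Per2 and Csnk1d had none. The windows of Csnk1e, of Fbxl21 and of a second Per1 start site had no match to any of these motifs. These matches are descriptions of the letters, and introns lie outside the window.

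Of the 9 members, 0 passed the test as higher and 0 as lower in the libraries labelled r1r2V (edgeR's quasi-likelihood test, Benjamini-Hochberg adjusted p under 0.05 over 14438 genes). Over all genes tested, 0.298% were called higher and 0.118% lower. In counts simulated with equal spread in both groups, the test recovered 0% of genes changed by a fold of 1.2 and 44% at 1.5. The absence of calls therefore does not show that levels were equal. At an unadjusted p under 0.05, 3 of the 9 members were higher (Cry1, Ciart and Per1) and 0 were lower, where 3.95% of all genes were higher. That count of 3 fell to 1, Cry1, without r1r2V replicate 1 and to 2 without any 1 V library, and was 4 without r1r2V replicate 5. Without r1r2V replicate 4 it was 3, with Csnk1e in place of Ciart. The share of all genes was not counted for these fits, so their counts cannot be read against it. With all libraries, Cry1, Ciart and Per1 were also the members whose 3 r1r2V libraries all lay above their 3 V libraries. That held for 6.87% of all genes in the upward direction and 7.63% in the downward direction, the latter shown by 0 members. The median log2 fold change was 0.10 over the members and 0.01 over all genes, with 7 members positive and 2 negative. DESeq2 called 1 member, Cry1, where it called 69 of all genes higher and 40 lower. With limma-voom 0 members were called, where 36 of all genes were called higher and 17 lower. At an unadjusted p under 0.05 these tools had 2 and 3 members, and the share of all genes was not counted for them.

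**Figure D1:**
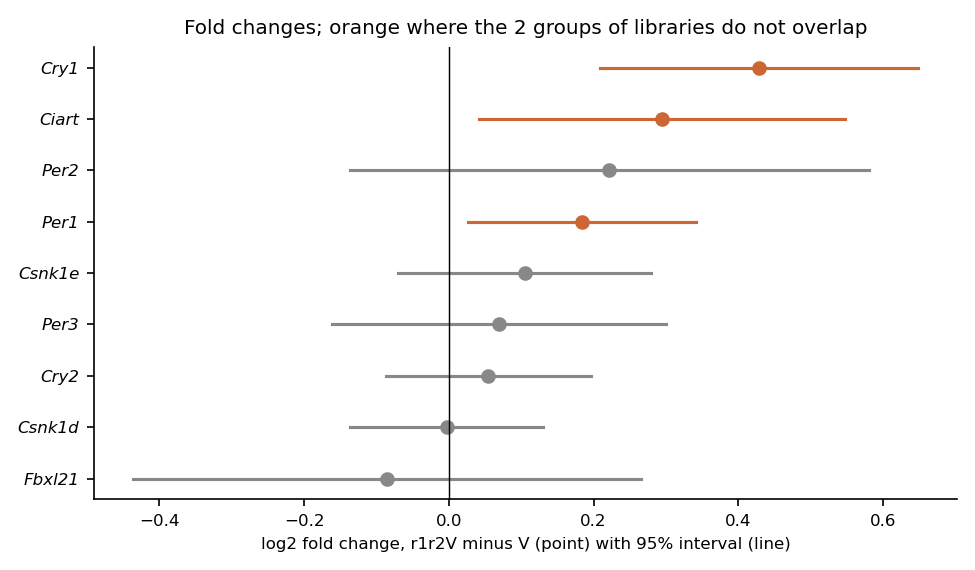
Log2 fold change of each member (r1r2V minus V, point) with its 95% interval (line) from edgeR's quasi-likelihood fit, 3 libraries a group. Cry1 (0.43), Ciart (0.29) and Per1 (0.18), in orange, are the members whose groups of libraries do not overlap, and their intervals lie above 0 before adjustment for the number of genes tested.

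Cry1, the cryptochrome that represses BMAL1 and CLOCK most strongly, showed the largest difference of the 9. Its level was 34.9, 37.9 and 34.3 CPM for V replicates 2, 3 and 4, against 51.1, 52.2 and 40.9 CPM for r1r2V replicates 1, 4 and 5. All 3 libraries labelled r1r2V were above all 3 V libraries, with replicate 5 nearest to them. The means were 35.7 ± 1.96 and 48.1 ± 6.20 CPM (SD, n = 3 each), a ratio of 1.35 with a 95% interval of 1.16 to 1.57. The log2 fold change of 0.43 (standard error 0.0985) had an unadjusted p of 0.00143, the 111th smallest of all genes, and did not pass (edgeR adjusted p = 0.186). It passed with DESeq2 (adjusted p = 0.0249) and, in edgeR, without r1r2V replicate 5 (log2 fold change 0.53, adjusted p = 0.0229). Without any other single library it did not pass, with edgeR adjusted p from 0.232 (without r1r2V replicate 1) to 0.774 (without V replicate 2). The gain came from leaving out r1r2V replicate 5, the r1r2V library nearest to V. Replicate 5 of r1r2V was also the library with a low mean over SCN markers and high fibroblast markers, whose part in the result was not tested. Cry1 (gene 12952) lies on chromosome 10 from 85131700 to 85185054, minus strand (GRCm38), and no called gene was on that chromosome.

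Cry2, the other cryptochrome, was nearly level. Its values were 81.9, 76.7 and 80.8 CPM across V and 85.5, 80.0 and 83.2 CPM across r1r2V, and the groups overlapped. The fold was 1.04 with a 95% interval of 0.941 to 1.14 (log2 fold change 0.05, adjusted p = 0.837), so an increase of the size seen for Cry1 lay outside the interval of Cry2. Cry2 (gene 12953) lies on chromosome 2 from 92403646 to 92434085, minus strand, and a GENCODE transcript on the other strand, D930015M05Rik, which the tables do not count, overlaps 23417 bp of it. Because it is not stated whether counting used strand, reads of the pair cannot be told apart.

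The balance of the cryptochromes was compared within each library, as the ratio of their FPKM, the deposited level scaled by transcript length and library, which allows different genes to be compared. Cry1 had 0.569, 0.660 and 0.566 of the Cry2 level in V and 0.798, 0.871 and 0.657 in r1r2V. The groups overlapped by a narrow margin, r1r2V replicate 5 lying just under V replicate 3. The mean ratio was 0.598 ± 0.0533 in V and 0.775 ± 0.109 in r1r2V (SD, n = 3 each; exact permutation p = 0.2, two-sided, 0.7 after adjustment over the 7 ratios compared). With 3 libraries against 3 this test cannot give a p under 0.1.

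Ciart, whose product CHRONO represses BMAL1 and CLOCK, followed a pattern close to that of Cry1. Its values were 10.8, 11.7 and 11.7 CPM across V and 14.9, 14.9 and 12.2 CPM across r1r2V. The groups did not overlap, and r1r2V replicate 5 was again the lowest of its group. Means were 11.4 ± 0.549 and 14.0 ± 1.52 CPM (SD, n = 3 each), a ratio of 1.23 with a 95% interval of 1.03 to 1.46 (log2 fold change 0.29, unadjusted p = 0.0265, edgeR adjusted p = 0.586). Without r1r2V replicate 5 the log2 fold change was 0.38 (adjusted p = 0.27). Centred on each gene's mean over the 6 libraries, the log2 levels of Cry1 and Ciart differed by a root mean square of 0.0852. Among the 36 pairs of members, 4 were closer, all of them among Per1, Cry2, Csnk1d and Csnk1e, whose levels varied less. Of 13873 genes of at least 1 CPM, 202 lay within 0.1 of Ciart and 31 within 0.1 of Cry1. Such closeness was therefore not particular to these members. Ciart (gene 229599) lies on chromosome 3 from 95878500 to 95882257, minus strand, and an antisense GENCODE gene, C920021L13Rik, spans all 3758 bp of it without being counted in the tables.

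Per1, the period gene that light and cyclic AMP induce fastest, was higher by a smaller margin. It stood at 62.7, 61.5 and 58.4 CPM across V and 74.0, 66.0 and 67.4 CPM across r1r2V. No r1r2V library reached down to the V range. Means were 60.9 ± 2.25 and 69.1 ± 4.25 CPM (SD, n = 3 each), a ratio of 1.14 with a 95% interval of 1.02 to 1.27 (log2 fold change 0.18, unadjusted p = 0.027, edgeR adjusted p = 0.589). Per1 was unlike Cry1 and Ciart in r1r2V replicate 5, which was not the lowest of its group. The gene (18626) lies on chromosome 11 from 69095108 to 69109965, plus strand.

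Per2, the period gene whose loss shortens and then abolishes behavioural rhythms in darkness, had the widest spread. Its values were 39.5, 47.0 and 42.7 CPM across V and 65.5, 46.1 and 39.1 CPM across r1r2V. Replicate 1 alone was above the V range, replicate 4 lay inside it, and replicate 5 was below every V library. The coefficient of variation was 8.79% in V and 27.2% in r1r2V, and the fold of 1.17 had a 95% interval of 0.910 to 1.496 (edgeR adjusted p = 0.746). Without r1r2V replicate 1 the log2 fold change went from 0.22 to -0.02. Per2 (gene 18627) lies on chromosome 1 from 91415977 to 91459351, minus strand.

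Per3, which is not needed for rhythmicity, stood at 37.0, 46.3 and 46.2 CPM across V and 50.1, 43.5 and 42.1 CPM across r1r2V. V replicate 2 was lowest and r1r2V replicate 1 highest, with the other 4 libraries together between them. The fold was 1.05 with a 95% interval of 0.894 to 1.23 (log2 fold change 0.07, edgeR adjusted p = 0.877). Per3 (gene 18628) lies on chromosome 4 from 150997018 to 151044707, minus strand, wholly inside the GENCODE span of Camta1, on the same strand, so reads of unspliced or shared sequence there could be divided between them. Uts2 overlaps 4714 bp of it on the other strand and was too low to be tested. Camta1 itself had a log2 fold change of 0.12 (edgeR adjusted p = 0.662). In r1r2V replicate 1 all 3 period genes were at their highest of the 6 libraries.

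**Figure D2:**
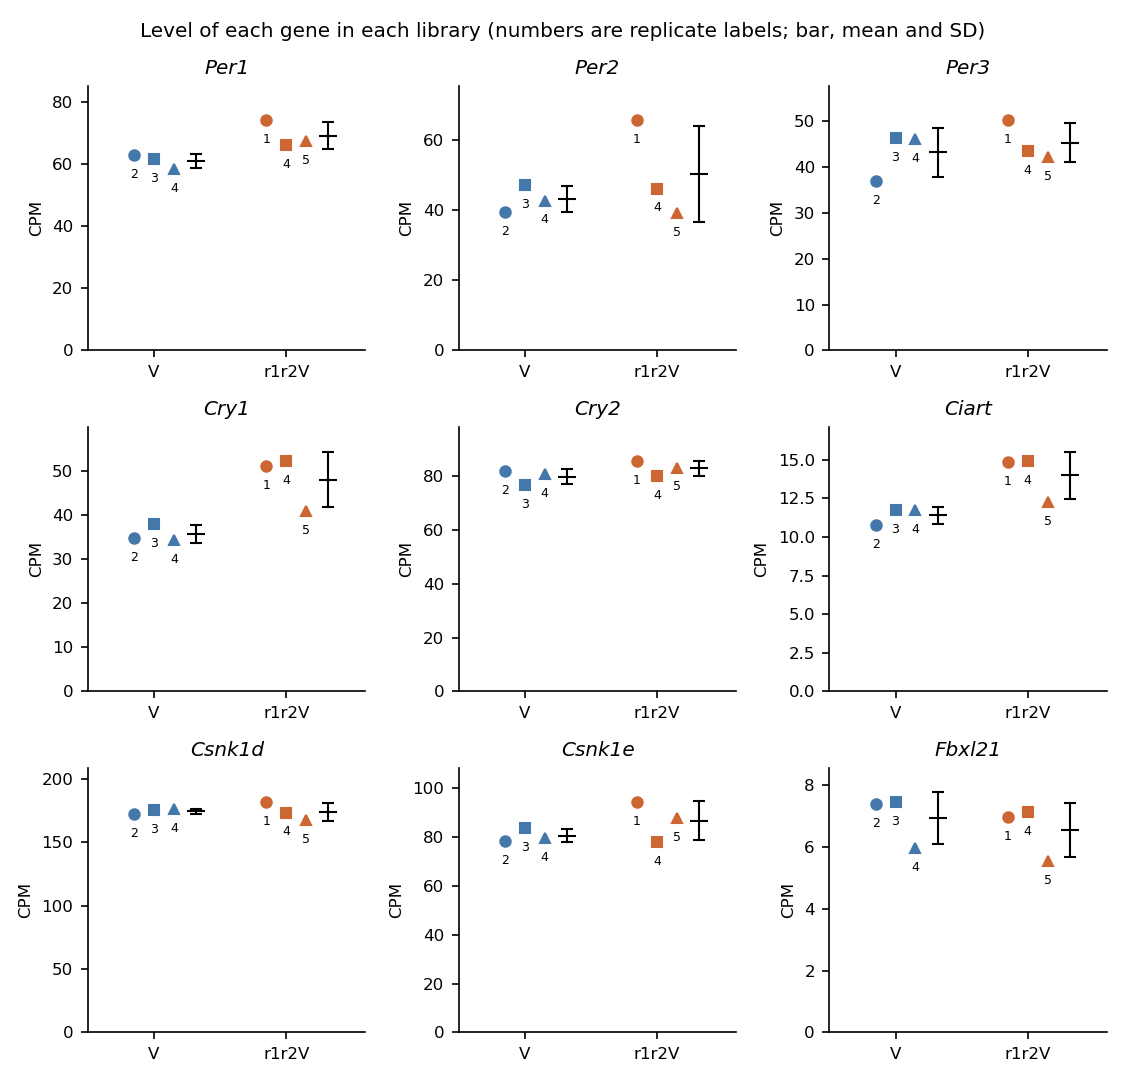
CPM of each member in each library (V blue, r1r2V orange, numbers give the replicate labels, bars the mean and SD of 3 libraries). Cry1, Ciart and Per1 separate by group, Per2 is spread from 39.1 to 65.5 CPM within r1r2V, and Csnk1d stays between 167 and 181 CPM.

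Ratios among the period genes overlapped between groups. Per1 had 1.99, 1.64 and 1.72 times the Per2 level (FPKM) in V and 1.42, 1.79 and 2.16 times in r1r2V (exact permutation p = 1, difference of mean log2 ratios -0.01). Per3 had 0.975 ± 0.0721 of the Per2 level in V and 0.904 ± 0.153 in r1r2V (SD, n = 3 each; exact permutation p = 0.6). The summed Per level was 0.864 ± 0.0442 of the summed Cry level in V and 0.838 ± 0.0723 in r1r2V (SD, n = 3 each; exact permutation p = 0.7).

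Neither casein kinase gene passed the test. Csnk1d, which encodes the kinase with the larger part in setting clock period, stood at 172.3, 175.2 and 175.9 CPM across V and 181.4, 173.5 and 167.3 CPM across r1r2V. The V libraries lay inside the range of the r1r2V libraries. The fold was 0.998 with a 95% interval of 0.910 to 1.09 (edgeR adjusted p = 0.991), and its coefficient of variation in V, 1.11%, was the smallest of the 9. Csnk1e, its close relative, stood at 78.4, 83.5 and 79.6 CPM across V and 94.1, 78.0 and 87.7 CPM across r1r2V. Here r1r2V replicates 1 and 5 were above V and replicate 4 just below it (fold 1.07, 95% interval 0.953 to 1.21, edgeR adjusted p = 0.752). The ratio of Csnk1d to Csnk1e was 1.62 ± 0.0443 in V and 1.51 ± 0.138 in r1r2V (SD, n = 3 each; exact permutation p = 0.4). Csnk1d (gene 104318) lies on chromosome 11 from 120957709 to 120991350 and Csnk1e (gene 27373) on chromosome 15 from 79417852 to 79455579, both on the minus strand. Slc16a3 overlaps Csnk1d by 3160 bp on the other strand and averaged 2.30 CPM, and the antisense genes Gm28192 at Csnk1d and Gm16059 at Csnk1e were not counted in the tables.

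Fbxl21, the F-box gene whose product acts on CRY, was the least abundant member. Its level was 7.39, 7.44 and 5.96 CPM across V (131, 132 and 94 expected counts), against 6.96, 7.12 and 5.54 CPM across r1r2V (120, 124 and 95 expected counts). In each group 2 libraries were close to 7 CPM and 1 was lower, V replicate 4 and r1r2V replicate 5. The fold was 0.942 with a 95% interval of 0.739 to 1.201 (edgeR adjusted p = 0.902). Fbxl21 (gene 213311) lies on chromosome 13 from 56522388 to 56537898, plus strand, 3.54 Mb from Nfil3, the nearest called gene.

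**Figure D3:**
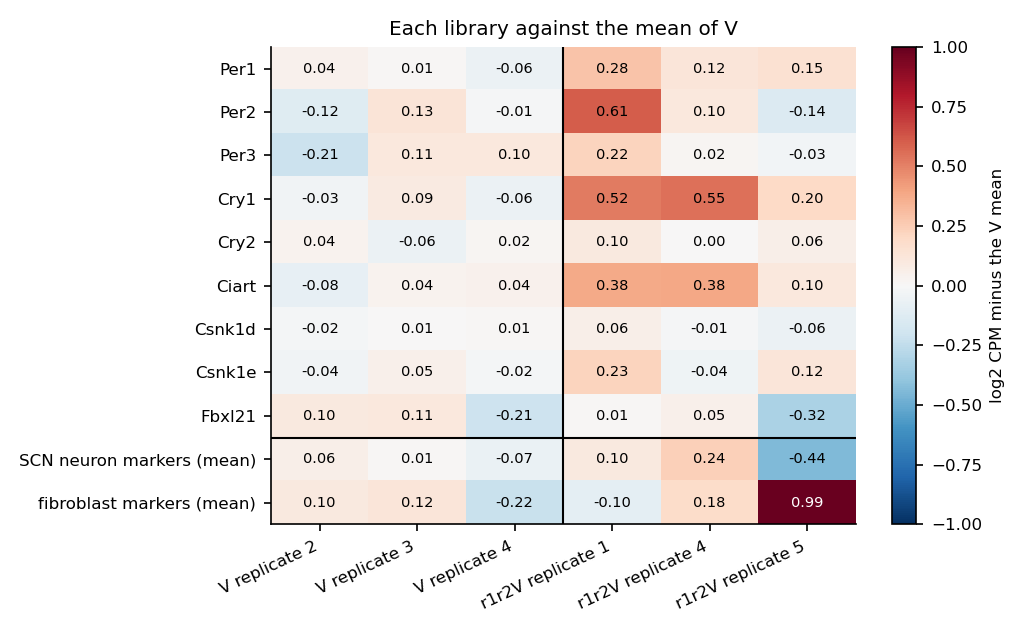
Log2 CPM of each member in each library, relative to the mean of the 3 V libraries, with the mean of 14 SCN neuron markers and of 6 meningeal fibroblast markers in the lowest rows (red above, blue below the V mean). Cry1 and Ciart are 0.38 to 0.55 above the V mean in r1r2V replicates 1 and 4 and 0.10 to 0.20 above it in replicate 5, where SCN markers stand at -0.44.

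Per transcript length, the order of the 9 genes in V was Csnk1d (48.4 ± 0.699 FPKM), Csnk1e (29.9 ± 1.08), Cry2 (20.4 ± 0.605), Per1 (13.3 ± 0.473), Cry1 (12.2 ± 0.715), Ciart (8.81 ± 0.454), Per2 (7.51 ± 0.698), Per3 (7.33 ± 0.936) and Fbxl21 (3.70 ± 0.446), each mean ± SD of 3 libraries. Neighbours whose ranges overlapped in V were Per1 with Cry1 and Per2 with Per3. In the libraries labelled r1r2V, Cry1 (16.3 ± 2.18 FPKM, SD, n = 3) stood above Per1 (15.0 ± 1.11), though their ranges overlapped, as did those of Ciart with Per2 and of Per2 with Per3. In FPKM, both kinase transcripts were above every Per and Cry transcript in both groups.

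**Figure D4:**
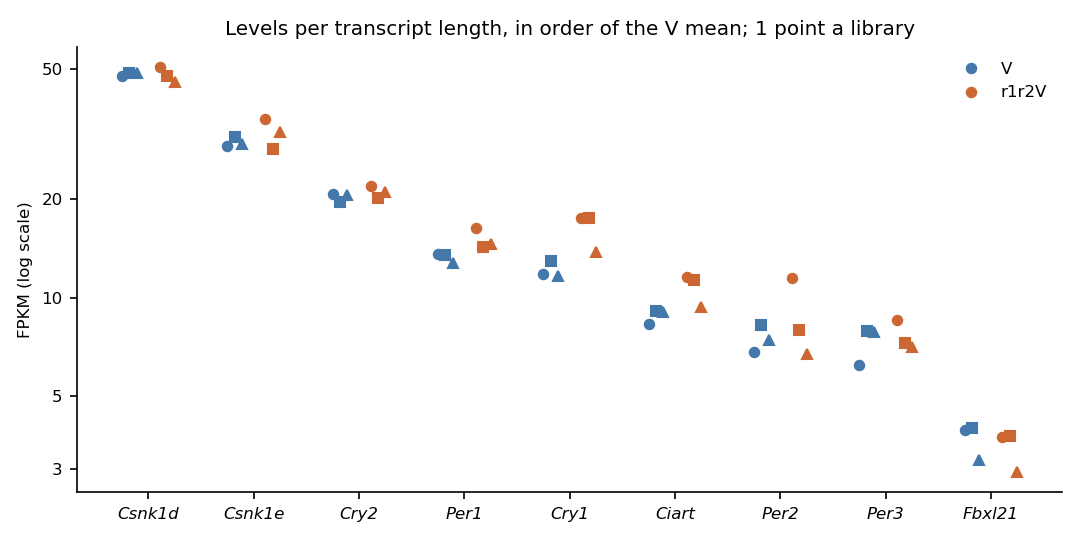
FPKM of each member on a log axis, 1 point a library, ordered by the V mean (V blue, r1r2V orange; circles, squares and triangles are replicates 2, 3 and 4 of V and 1, 4 and 5 of r1r2V). Levels run from 3.19 to 48.8 FPKM in V, and Cry1 passes Per1 in the order of means in r1r2V.

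The tables also list, for each gene and library, a transcript length that shifts when a gene's isoforms are mixed differently. It could vary for the 5 members with more than 1 listed transcript (Per1, Per3, Csnk1d, Csnk1e and Fbxl21). For Csnk1e, with 3 transcripts, it was 2788.91, 2801.55 and 2798.20 bases in V and 2804.72, 2807.71 and 2802.91 in r1r2V, so that the groups did not overlap. The means differed by 8.89 bases (exact permutation p = 0.1, the smallest possible). Among all tested genes whose length varied, 10.2% had groups that did not overlap, in either direction. The other 4 members overlapped, with mean differences from -0.72 to 4.48 bases.

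Regulators around the 9 genes were read from 6 lists. Of 20 further kinases and phosphatases of PER and CRY, 0 were called in either direction, with log2 fold changes from -0.07 to 0.15 and a median of 0.05. The largest were those of Prkaa2, a catalytic subunit of the energy sensor AMPK that phosphorylates CRY1 (0.15, edgeR adjusted p = 0.678), and Csnk2a2, a catalytic subunit of casein kinase 2 (0.14, 0.668). Of 13 tested ubiquitin ligase and deubiquitinase genes, 0 were called (median 0.02, range -0.06 to 0.09). In that list, Usp14 had 0.09 and Mdm2, the gene of a ligase that can ubiquitinate PER2, had 0.08. Of 22 partners of PER complexes and of CRY repression, 0 were called (median 0.02). The largest differences there were those of Hdac3, the deacetylase that also works with REV-ERB (-0.18, edgeR adjusted p = 0.66), and Trim28, a chromatin corepressor (-0.15, 0.598). At an unadjusted p under 0.05 these 3 lists together had 1 gene, Trim28.

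Calls were found among transcription factors that act on Per and Cry. Of 13 activators, 2 were called higher and 0 lower (median 0.16), where 0.298% of all genes were called higher and 0.118% lower. Arntl, which encodes BMAL1, stood at 29.0, 29.5 and 27.2 CPM across V and 49.1, 47.3 and 45.9 CPM across r1r2V (a log2 fold change of 0.73, edgeR adjusted p = 0.000914). Npas2, which encodes a partner of BMAL1, stood at 7.34, 7.78 and 9.07 CPM across V and 19.7, 15.74 and 12.6 CPM across r1r2V (0.99, edgeR adjusted p = 0.0359). The count of activators fell from 2 to 1 when any 1 library other than r1r2V replicate 5 was left out. Of 7 repressors of Per and Cry transcription, 3 were called higher and 0 lower (median 0.47), beside the same shares of all genes. In 6 of the 7, all r1r2V libraries lay above all V libraries, as in 6.87% of all genes. The count called was 2 without any 1 V library and 4 with DESeq2 or without r1r2V replicate 4 or 5. The 3 called were Nr1d1 (1.504, edgeR adjusted p = 8.24e-05), Nfil3, the D-box repressor (1.06, adjusted p = 0.000881), and Bhlhe40, an E-box repressor (0.51, adjusted p = 0.0318). Nr1d1 and Nr1d2, both among the 6 that did not overlap, are themselves the targeted genes. These calls were known when the lists were drawn up, so the counts are not a result about activators or repressors as a class. Of 17 genes of the CREB route that induces Per1 and Per2, 0 were called. Crem, a CREB family gene, had 0.46 (adjusted p = 0.296) and Sik2, a salt-inducible kinase gene, 0.38 (0.623).

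The level of the repressors relative to their activators was also compared. The summed FPKM of the 5 Per and Cry genes was 2.52, 2.54 and 2.64 times that of Arntl, Clock and Npas2 in V and 2.17, 2.01 and 2.06 times in r1r2V. The groups did not overlap, with means of 2.57 ± 0.0649 and 2.08 ± 0.0798 (SD, n = 3 each). The exact permutation p was 0.1, the smallest that 3 against 3 allow, and 0.7 after adjustment over the 7 ratios. The denominator holds the called genes Arntl and Npas2, while the mean of each of the 5 Per and Cry genes was at or above that of V. The difference of mean log2 ratios was -0.30 with FPKM and -0.14 with CPM, which weight the genes differently.

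**Figure D5:**
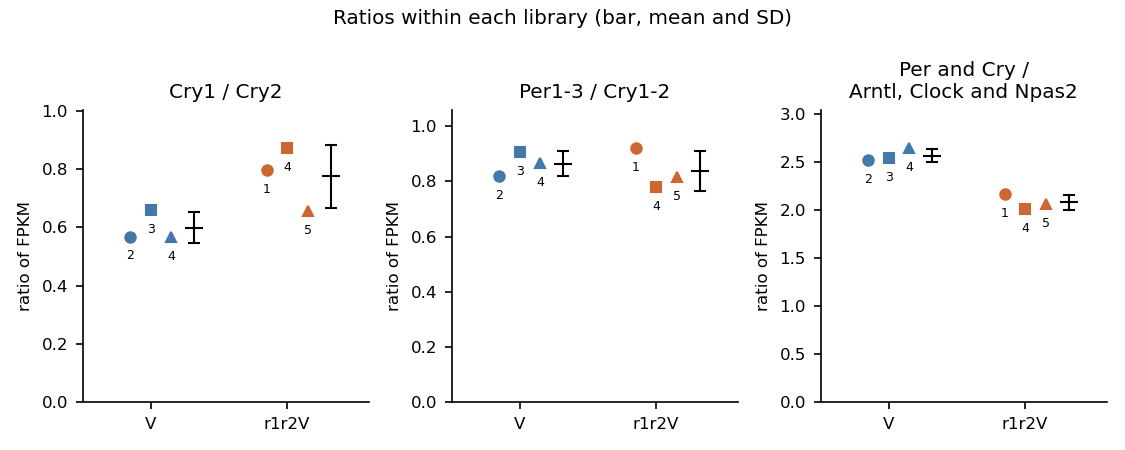
Ratios of FPKM within each library (V blue, r1r2V orange, numbers give replicate labels, bars the mean and SD): Cry1 to Cry2, summed Per to summed Cry, and summed Per and Cry to summed Arntl, Clock and Npas2. The last separates the groups (2.52 to 2.64 against 2.01 to 2.17), while the other 2 overlap.

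For the 3 members with the widest range over the 6 libraries, the genes with the most similar centred log2 levels were taken from 13873 genes of at least 1 CPM. Nearest to Per2 were Aoc2, Crocc and N4bp2 (root mean square differences 0.0421, 0.0532 and 0.0538). Nearest to Cry1 were Gm3696, Lrrc2 and Sgk3 (0.0580, 0.0637 and 0.0673), and nearest to Ciart were Ago2, Rbm45 and Dock9 (0.0392, 0.0401 and 0.0416). Within a difference of 0.1, Per2 had 60 genes, Cry1 31 and Ciart 202.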

How the data were processed

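RNA-seq of SCN pools was compared between 3 libraries titled V and 3 titled r1r2V. The authors deposited expected counts and FPKM per gene and library, per the file headers, with a transcript length in bases, another value per gene deposited by the authors. Expected counts are estimated reads, and FPKM is scaled by length and library. The submitters' processing notes name Bowtie2 2.2.5, Cufflinks 2.2.1, DESeq2, GATK, HISAT2 2.0.4, RSEM 1.2.12, StringTie 1.0.4 and build mm10. Their roles, filters and use of strand are not given in those sources. Genes a table did not list were set to 0, and expected counts were rounded. All member counts were whole as deposited.

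Genes were kept by filterByExpr (minimum count 10), scaled by TMM and tested with edgeR 4.0.16 in R 4.3.3 (quasi-likelihood, Benjamini-Hochberg over 14438 genes, threshold 0.05). Counts were simulated with equal spread in both groups, unlike these libraries, among which r1r2V varied more. On those counts this test recovered 0% of genes changed by a fold of 1.2, 44% at 1.5, 84% at 2 and 96% at 4. Of its calls there, 4.27% were unchanged genes. Intervals use the fit's standard error. Ratios were tested with scipy 1.17.1. Alternatives were DESeq2 1.42.0, limma 3.58.1 (voom, quality weights, log2 of FPKM plus 1 or 0.1), other scalings and filters, and leaving out each library. Genes named are the 9 members, the targeted genes, called list genes or otherwise up to 2 per list with the largest change, overlapping or nearest called genes and the genes most alike. Avp, Vip, Six6, Prok2, Rgs16, Ptgds, Oxt, Pomc and Pmch were added as examples of markers. Of the 7 ratios compared, 1 is not reported here, nor is 1 nearest called gene. The members and lists were chosen with earlier results of these data known. Overlaps and strands are from GENCODE M21, positions and promoters from RefSeq on GRCm38.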

Additional observations from a re-analysis of the deposited data

How the results depend on the processing

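No paired analysis was possible because replicate 4 is the only number found in both groups. Cry1, Ciart, Per1, Cry2 and Csnk1e were higher in r1r2V under all 17 alternatives, and Cry1 ranged from 0.37 to 0.53. Members called higher were 0 except 1 (Cry1) with DESeq2, where Cry1 had 0.43, and 0 to 1 without single libraries, Cry1 then having 0.37 to 0.53 (0.53 and past the threshold without r1r2V replicate 5). Leaving out 1 library turned 4 members: Per2, at 0.22 with all libraries, ran from -0.02 (without r1r2V replicate 1) to 0.37, Per3 from -0.03 to 0.12, Csnk1d from -0.03 to 0.02 and Fbxl21 from -0.18 to 0.02. Log2 ratio differences that turned ran from -0.16 to 0.15 (Per1 to Per2), -0.24 to 0.01 (Per3 to Per2) and -0.12 to 0.00 (summed Per to summed Cry). Activators called higher were 1 to 2 without 1 library. Over all genes, DESeq2 called 69 higher and 40 lower, and leaving out 1 library gave 19 to 52 higher and 7 to 24 lower, the low counts arising without any V library. The cause was not tested. With 94 to 132 counts a library, Fbxl21 had the least depth of the 9.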

Other observations

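The E-box matches of Cry1, Ciart and Per1 were set beside those of all genes, a comparison chosen after the values were seen and given with no test. Of 1300 tested genes with at least 1 E-box in the promoter window, the median log2 fold change was 0.02, 4 were called higher and 1 lower, and in 8.08% all r1r2V libraries lay above all V libraries. Over all genes tested, 0.298% were called higher, 0.118% lower, and 6.87% had all r1r2V libraries above. For the 103 tested genes with a D-box, the median was 0.04, with 2 called higher, 0 lower and 12.6% with all r1r2V libraries above. For the 717 tested genes with a REV-ERB and ROR element core, which no member window held, the median was 0.00, with 10 called higher, 2 lower and 7.53% with all r1r2V libraries above.

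Distances to the nearest called gene were read for the members. The nearest to Cry2 was Cd59a, 11.7 Mb away, to Per3 Padi2, 10.04 Mb away, to Csnk1d Fkbp10, 20.5 Mb away, and to Per2 Npas2, 52.1 Mb away. No called gene shared a chromosome with Cry1, Ciart or Csnk1e.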
